A study of Rattus norvegicus with 20 samples.

Results

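The aryl hydrocarbon receptor (AhR) pathway was followed through 6 genes in the liver of rats given triphenyl phosphate (TPHP), an organophosphate flame retardant and plasticiser. These were the receptor Ahr, its partner Arnt and 4 of its target genes, Cyp1a1, Cyp1a2, Cyp1b1 and Tiparp. They were taken as the probe sets annotated to each symbol, 8 of 31042 probe sets, and stood for 6 of 14217 genes. They were selected on the difference between the 881 mg/kg and vehicle arrays, so their values against vehicle are given as a description, without a test.

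The rats were male, of the Harlan Sprague-Dawley strain, and their liver RNA was measured on 20 Affymetrix arrays. The vehicle group, given corn oil by gavage, had 5 arrays, and the groups at 55, 110, 220, 440 and 881 mg/kg TPHP in corn oil had 3 each. Rats were dosed once a day for 4 days, and liver was taken on day 5. The 440 mg/kg dose of the sample labels is 441 in the design text. The treatment text speaks of 3 rats a group and of 5 groups while listing 6 doses, which does not match the 5 vehicle arrays. The labels do not say that each array is a separate animal, so the spread behind each p-value is that between arrays and may be technical. Values are log2 expression after RMA, a method that corrects background, makes the arrays' distributions alike and summarises the probes of a set. Levels of different probe sets are not compared, since probes differ in how brightly they hybridise, and the low end of the scale is compressed.

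AhR is a ligand-activated transcription factor held in the cytoplasm by chaperones. Once a planar aromatic ligand binds, it moves to the nucleus, pairs with ARNT and binds DNA elements with the core GCGTG. Its targets include the CYP1 family of cytochrome P450 enzymes, which oxidise aromatic compounds, and Tiparp, an ADP-ribosyltransferase that represses the receptor. Cyp1a1 is low in unexposed rat liver and is the usual marker of receptor activation, whereas Cyp1a2 is expressed without a ligand, mainly in hepatocytes near the central vein. Cyp1a1 and Cyp1a2 are neighbours on rat chromosome 8, with 0 RefSeq genes between them in GRCr8.

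The promoters of the target genes that had a window are shown for the receptor's core element. The RefSeq promoter table (GRCr8, 250 bases before to 50 after the start) matched 5 of the 6 genes, all but Cyp1a1. Cyp1a1 and Cyp1a2 therefore cannot be compared here, and sites outside the window were not searched. The core was searched as GCGTG on both strands, and its matches stand in capitals, as CACGC where they lie on the opposite strand. The window of Cyp1a2 lies at chr8:66978100-66978399 on the minus strand, that of Cyp1b1 at chr6:21094315-21094614 on the plus strand and that of Tiparp at chr2:152063519-152063818 on the plus strand.
Cyp1a2: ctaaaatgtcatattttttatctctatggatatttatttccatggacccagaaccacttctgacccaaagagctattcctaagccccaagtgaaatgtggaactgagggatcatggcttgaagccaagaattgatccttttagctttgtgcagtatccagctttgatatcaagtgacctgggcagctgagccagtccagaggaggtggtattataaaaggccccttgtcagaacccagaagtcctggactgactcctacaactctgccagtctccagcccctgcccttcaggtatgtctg
Cyp1b1: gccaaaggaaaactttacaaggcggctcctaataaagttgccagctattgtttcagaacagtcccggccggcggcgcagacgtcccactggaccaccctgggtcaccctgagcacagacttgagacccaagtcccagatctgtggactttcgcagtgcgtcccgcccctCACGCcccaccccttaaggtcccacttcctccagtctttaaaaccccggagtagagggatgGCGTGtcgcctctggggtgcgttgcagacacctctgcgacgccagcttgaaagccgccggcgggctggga
Tiparp: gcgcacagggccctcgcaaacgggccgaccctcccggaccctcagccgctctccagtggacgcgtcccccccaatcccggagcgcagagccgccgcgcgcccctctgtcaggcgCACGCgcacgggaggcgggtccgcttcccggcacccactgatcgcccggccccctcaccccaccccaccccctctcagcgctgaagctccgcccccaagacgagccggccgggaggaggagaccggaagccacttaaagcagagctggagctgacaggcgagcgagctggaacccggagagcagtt
Cyp1a2 held no match in this window. Cyp1b1 held 2, and the one 20 to 16 bases before the start was also a match to the longer form TNGCGTG, which contains the core. Tiparp held 1, from 136 to 132 bases before the start on the opposite strand. Of the other genes, Arnt (chr2:185686453-185686752) held 1 and Ahr (chr6:57998852-57999151) held none. Of 33469 promoter windows in the table, 29.7% held the core and 4.89% the longer form, so a match is common and describes only the letters.

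One array stood apart and was kept. Replicate 2 at 881 mg/kg had a median correlation of 0.980 with the other arrays, whose own medians were 0.990 to 0.994. Its 3' minus 5' difference of the Gapdh control probe sets, a sign of RNA quality, was 5.24 on the log2 scale, against 0.81 to 1.64 in the others, and that of beta-actin was 3.47, against 1.67 to 2.72. For hexokinase it was 1.47, against 1.54 to 2.06. Beside many of the values and counts at 881 mg/kg, those without this array are also given. Where they are not given, the value or count includes this array.

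The Cyp1a1 values of the dosed arrays lay above those of the vehicle arrays at every dose, and the mean was highest at 881 mg/kg. The vehicle arrays read 5.51, 5.79, 5.75, 5.84 and 5.58. The arrays read 5.88, 6.15 and 5.94 at 55 mg/kg and 5.88, 6.04 and 6.11 at 110 mg/kg. They read 6.39, 6.16 and 6.60 at 220 mg/kg, 6.28, 7.63 and 7.99 at 440 mg/kg, and 7.42, 9.43 and 8.04 at 881 mg/kg. All 15 dosed arrays lay above all 5 vehicle arrays, as they did for 1.86% of all genes. The 55 and 110 mg/kg arrays overlapped, those at 220 mg/kg lay above both, and the ranges at 440 mg/kg overlapped those at 220 and at 881 mg/kg.

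The group means for Cyp1a1 were 5.69 ± 0.14 in vehicle (SD, n = 5), 5.99 ± 0.14, 6.01 ± 0.12, 6.38 ± 0.22, 7.30 ± 0.90 and 8.30 ± 1.03 from 55 to 881 mg/kg (SD, n = 3 each). The spread was wide at the top doses, where 1 array at 440 mg/kg stayed within the 220 mg/kg range. Against vehicle these are log2 changes of 0.30, 0.31, 0.69, 1.61 and 2.60, each with a standard error of 0.34, or 1.23, 1.24, 1.61, 3.04 and 6.07-fold. At 55 and 110 mg/kg the change was smaller than its standard error, which is drawn from the spread of all groups, the wide ones included. Without the array that stood apart, the change at 881 mg/kg was 2.03.

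Cyp1a2 was lower than in vehicle liver from 220 mg/kg upward. Its vehicle arrays read 13.40, 13.21, 13.30, 13.44 and 13.44. The arrays read 13.30, 13.30 and 13.32 at 55 mg/kg and 13.26, 13.25 and 13.15 at 110 mg/kg, within or next to the vehicle range. They read 12.65, 12.95 and 12.99 at 220 mg/kg, 12.63, 12.70 and 12.54 at 440 mg/kg, and 12.87, 12.66 and 12.63 at 881 mg/kg. All 9 arrays of these 3 doses lay below all vehicle arrays, as they did for 2.03% of all genes, and the 3 doses overlapped each other.

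The means for Cyp1a2 were 13.36 ± 0.10 in vehicle (SD, n = 5) and 13.31 ± 0.015, 13.22 ± 0.064, 12.86 ± 0.19, 12.62 ± 0.081 and 12.72 ± 0.13 from 55 to 881 mg/kg (SD, n = 3 each). The lowest mean was at 440 mg/kg, where the linear value was 60.0% of vehicle, and at 881 mg/kg it was 64.2%. The log2 changes were -0.051, -0.14, -0.49, -0.74 and -0.64, each with a standard error of 0.085, and -0.61 at 881 mg/kg without the array that stood apart. The vehicle level was above the 95th percentile of every array (10.72 to 10.87) and below the highest value of any (15.30 to 15.36).

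**Figure D1:**
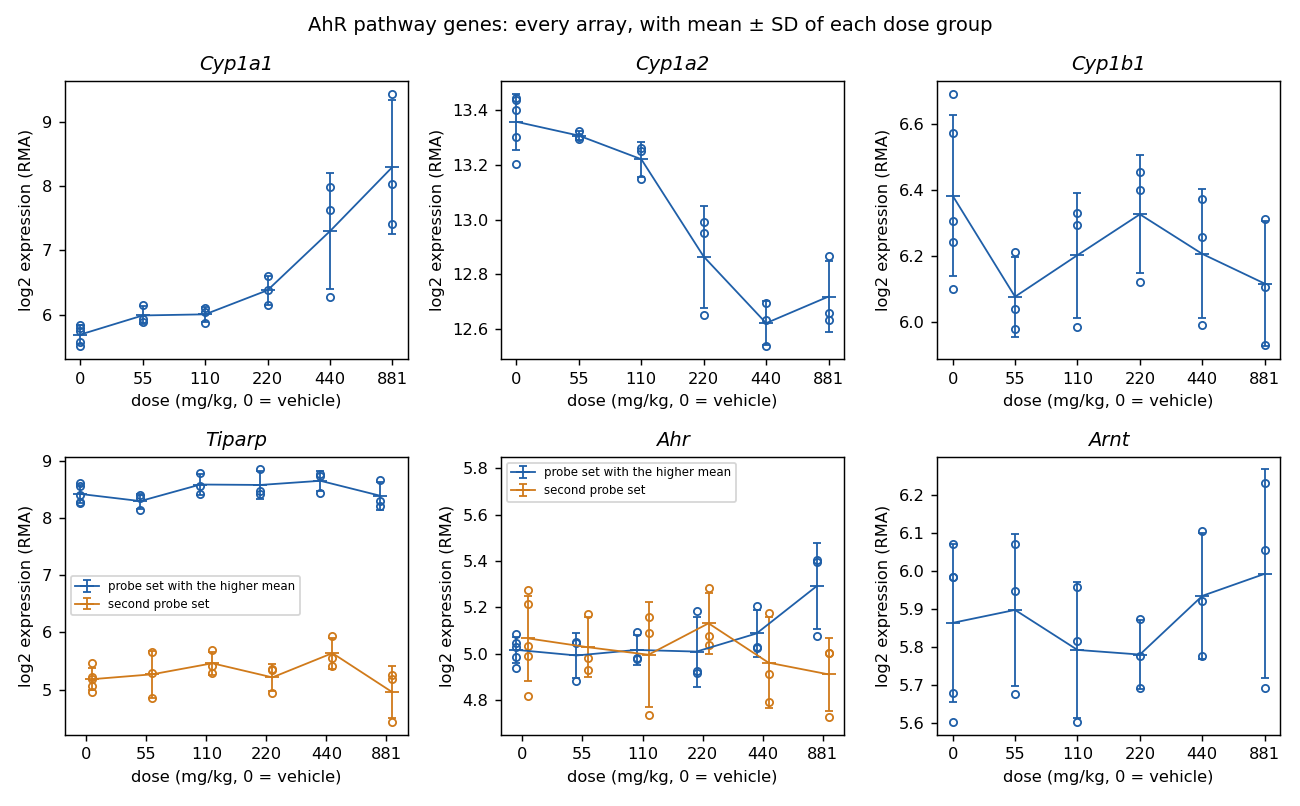
Log2 expression (y axis) of each AhR pathway gene against dose in mg/kg (x axis, 0 is vehicle); points are arrays, and lines with bars are group means ± SD, with a second colour for a second probe set. Cyp1a1 reaches a mean of 8.30 at 881 mg/kg, Cyp1a2 is lowest at 440 mg/kg with 12.62, and the vehicle and dosed points of Cyp1b1, Tiparp and Arnt overlap; each panel has its own y scale.

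Whether the 2 genes followed the dose was tested in the 12 arrays at 55 to 440 mg/kg. These arrays are outside the contrast used to pick the genes, but the genes were chosen with earlier results of these data known. The p-values from these arrays may therefore not be independent of that choice. Cyp1a2 fell with dose, by 0.24 ± 0.031 (SE) on the log2 scale per doubling, with a 95% interval of -0.31 to -0.18 and an adjusted p of 0.00267 (limma, over all genes). Cyp1a1 had a slope of 0.43 ± 0.11 per doubling with an interval of 0.20 to 0.66, but an adjusted p of 0.0555, which misses the threshold of 0.05. Of the 6 genes 1 fell, against 0.746% of all genes, and none rose, where 120 of 14217 genes did. The Cyp1a1 slope had an adjusted p of 0.0315 without replicate 1 at 440 mg/kg and 0.0439 without replicate 2 at 220 mg/kg, but 0.188 without replicate 2 and 0.129 without replicate 3 at 440 mg/kg (limma).

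The 440 mg/kg group was also set against the mean of the 3 lower doses, with the same limit on the p-values. Cyp1a2 was 12.62 ± 0.081 at 440 mg/kg (SD, n = 3) and 13.13 ± 0.23 at the lower doses (SD, n = 9), a fall of 0.51 on the log2 scale (adjusted p = 0.00984, limma). Cyp1a1 was 7.30 ± 0.90 at 440 mg/kg and 6.13 ± 0.24 at the lower doses, a difference of 1.17 ± 0.25 (SE) with an adjusted p of 0.0552 (limma). Of the 6 genes 1 fell, against 0.394% of all genes, and none rose, where 62 of 14217 genes did. Which side of the threshold each gene fell on turned on single arrays at 440 mg/kg. For Cyp1a1, which had 6.28 on replicate 1, the difference was 1.68 without it (adjusted p = 0.000286, limma). It was 1.01 without replicate 2 (adjusted p = 0.257, limma) and 0.83 without replicate 3 (adjusted p = 0.208, limma). For Cyp1a2 the adjusted p was 0.0512 without replicate 1 and 0.0624 without replicate 3 (limma).

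The slopes of Cyp1a1 and Cyp1a2 differed from each other. Within an array, the Cyp1a1 change minus the Cyp1a2 change averaged 0.35 ± 0.14 at 55 mg/kg, 0.45 ± 0.17 at 110, 1.18 ± 0.28 at 220, 2.34 ± 0.93 at 440 and 3.24 ± 1.12 at 881 mg/kg (log2, SD, n = 3 each), around a vehicle mean of 0 with an SD of 0.21 (n = 5). At 881 mg/kg it was 2.64 without the array that stood apart. Over the 12 arrays at 55 to 440 mg/kg the slopes differed by 0.67 per doubling (p = 9.2e-05, two-sided exact permutation test over all 369600 assignments of arrays to doses). Both genes were chosen with earlier results of these data known, so this p-value may not be independent of that choice. The mean difference was larger at each higher dose, although Cyp1a2 was no lower at 881 than at 440 mg/kg and the 440 and 881 mg/kg ranges overlapped.

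**Figure D2:**
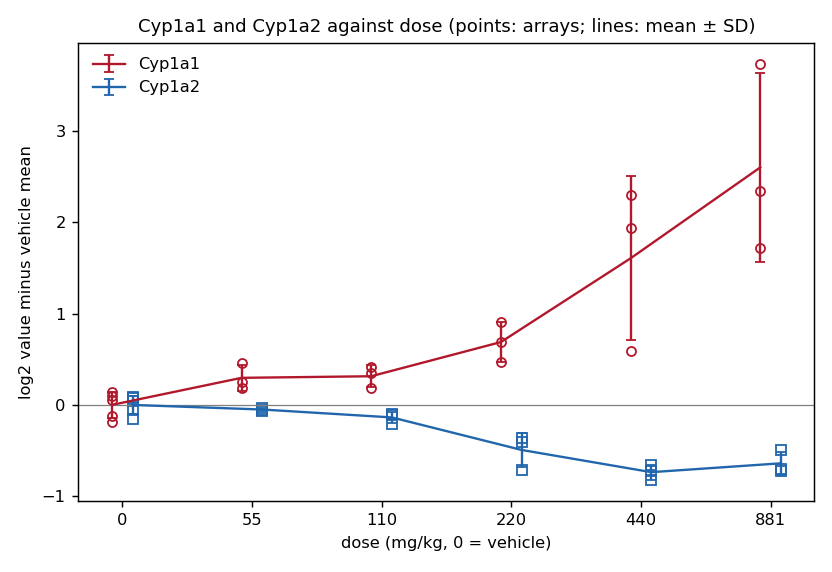
Log2 value minus the gene's own vehicle mean (y axis) for Cyp1a1 (circles) and Cyp1a2 (squares) against dose in mg/kg (x axis, 0 is vehicle); points are arrays and bars mean ± SD. Cyp1a1 reaches a mean of 2.60 and Cyp1a2 one of -0.64 at 881 mg/kg, and the 2 genes do not overlap at any dose from 55 mg/kg.

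Cyp1b1 and Tiparp, the other target genes, showed no separation from vehicle. Cyp1b1, an enzyme of steroid and aromatic oxidation that is low in hepatocytes, read 6.31, 5.93 and 6.11 at 881 mg/kg, against 6.69, 6.57, 6.10, 6.24 and 6.30 in vehicle. Its group means lay between 6.08 and 6.33 at all doses, against 6.38 ± 0.24 in vehicle (SD, n = 5). The largest change was -0.31 ± 0.13 (SE), at 55 mg/kg. Its slope over 55 to 440 mg/kg was 0.051 per doubling with an interval of -0.036 to 0.14 (adjusted p = 0.617, limma).

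Tiparp had 2 probe sets. The first read 8.29, 8.67 and 8.20 at 881 mg/kg, against 8.40, 8.61, 8.55, 8.26 and 8.28 in vehicle, a change of -0.033 ± 0.13 (SE), or -0.17 without the array that stood apart. Its means at the other doses ran between 8.30 and 8.65, and every dose overlapped the vehicle range. The slope was 0.11 per doubling with an interval of 0.013 to 0.20 (adjusted p = 0.25, limma). The second probe set changed by 0.46 at 440 mg/kg and by -0.23 at 881 mg/kg, and every dose overlapped the vehicle range. Its 440 mg/kg arrays lay above those at 220 mg/kg (0.42 between the means) and above those at 881 mg/kg (-0.68 from 440 to 881 mg/kg).

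The receptor and its partner differed little between doses. The first Ahr probe set read 5.08, 5.40 and 5.40 at 881 mg/kg, against 5.03, 4.98, 4.94, 5.09 and 5.05 in vehicle, so that 2 of 3 dosed arrays lay above the vehicle range. The change there was 0.27 ± 0.087 (SE), and the second Ahr probe set had -0.16, so the sign depends on the probe set. Without the array that stood apart the first had 0.22. Both levels of Ahr sat near the lower quartile of the arrays (4.99 to 5.09), where RMA values carry little signal. The slope of Ahr was 0.028 per doubling with an interval of -0.032 to 0.088 (adjusted p = 0.708, limma).

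Arnt, which pairs with AhR and also with the hypoxia-inducible factors, read 5.69, 6.23 and 6.05 at 881 mg/kg, against 5.68, 5.98, 5.60, 5.98 and 6.07 in vehicle. Its change was 0.13 ± 0.13 (SE), and 0.0097 without the array that stood apart. Its slope was 0.0098 per doubling with an interval of -0.074 to 0.094 (adjusted p = 0.941, limma). The groups overlapped at every dose.

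Other genes linked with the receptor moved in both directions. Of 12 listed, 10 were measured, and Ugt1a6 and Gsta2 were not analysed here as single genes. At 881 mg/kg 2 rose and 3 fell, where 12.7% of all genes rose and 6.73% fell, and their median change was -0.18, against 0.0007 over all genes. At 440 mg/kg 2 rose and 2 fell, where 6.76% of all genes rose and 4.28% fell. At 55, 110 and 220 mg/kg none was called, where 2.81%, 3.61% and 3.43% of all genes were. The count of 4 at 440 mg/kg was 1 without replicate 3 of that dose, and 2 without replicate 2 of that dose or without vehicle replicate 3 or 5.

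Nqo1, a quinone reductase driven by AhR and by NRF2, rose to 10.03 ± 0.29 at 881 mg/kg (SD, n = 3), against 8.24 ± 0.20 in vehicle (SD, n = 5), a log2 change of 1.79 ± 0.25 (SE, adjusted p = 0.000106, limma), or 1.63 without the array that stood apart. It rose by 1.40 at 440 mg/kg (adjusted p = 0.00147, limma). Ugdh, which makes UDP-glucuronic acid for conjugation, rose by 0.52 at 881 mg/kg (adjusted p = 0.00421, limma). Aldh3a1, an aldehyde dehydrogenase strongly induced by AhR ligands in rat liver, had a change of -0.090 ± 0.11 (SE), and Ahrr, the AhR repressor, one of -0.28 ± 0.10 (SE). Neither passed the test, with adjusted p-values of 0.59 and 0.0641 (limma).

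The genes of this list that fell at 881 mg/kg were Inmt, Socs2 and Fmo1. Inmt, an indole N-methyltransferase, fell to 6.79 ± 0.19 at 881 mg/kg (SD, n = 3), against 8.69 ± 0.83 in vehicle (SD, n = 5). Socs2, a suppressor of cytokine and growth hormone signalling, fell by 1.28 ± 0.30 (SE), and Fmo1, a flavin monooxygenase, fell by 0.86 ± 0.16 (SE). Nfe2l2, which encodes NRF2, fell by 0.45 at 440 mg/kg (adjusted p = 0.0255, limma) and had -0.24 at 881 mg/kg (adjusted p = 0.182, limma). Without the array that stood apart, Inmt and Fmo1 fell at 881 mg/kg and Socs2 had -0.89 (adjusted p = 0.0601, limma).

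Genes for proteins that hold or assist the receptor, and for related factors such as Hif1a, Epas1 and Arnt2, were counted next. Of 12 listed, 10 were measured, and Hsp90aa1 was among those not analysed here. None was called at 440 mg/kg, and 2 rose at 881 mg/kg, the coactivator Ncoa1 by 0.36 ± 0.081 (SE) and the hypoxia-inducible factor Hif1a by 0.24 ± 0.077 (SE). Leaving out the array that stood apart, 1 rose, Ncoa1, and Hif1a had 0.22 (adjusted p = 0.111, limma). These 2 of 10 are near the 12.7% of all genes that rose at 881 mg/kg. The median change of the 10 was 0.050, against 0.0007 over all genes.

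Of 7 genes of P450 electron supply and heme turnover, 4 rose at 440 mg/kg and 5 at 881 mg/kg, and none fell, where 6.76% and 12.7% of all genes rose. The others were not called. The list had a median change at 881 mg/kg of 0.39 (0.44 without the array that stood apart), against 0.0007 over all genes. Por, the P450 reductase on which CYP1 enzymes depend, rose to 11.05 ± 0.30 at 881 mg/kg (SD, n = 3), against 9.95 ± 0.26 in vehicle (SD, n = 5), a change of 1.10, or 0.93 without that array. It was also the 1 gene of the list called at 55, 110 and 220 mg/kg, with log2 changes of 0.65, 0.79 and 0.61, where 1.93%, 2.36% and 2.25% of all genes rose. Alas1, which starts heme synthesis, rose by 1.70 ± 0.23 (SE) at 881 mg/kg, and Hmox1, which breaks heme down, by 1.74 ± 0.17 (SE). Without that array they rose by 1.64 and 1.51. The part of these 7 genes in the Cyp1a1 and Cyp1a2 values was not tested.

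Tryptophan breakdown makes kynurenine and related compounds that can bind AhR. Of 10 genes measured (Ido2 and Il4i1 were not analysed here), 2 rose and 1 fell at 881 mg/kg, near the 12.7% and 6.73% of all genes that did so, and the counts were the same without the array that stood apart. Kynu, which cleaves kynurenine, fell to 11.18 ± 0.33 at 881 mg/kg (SD, n = 3), against 12.35 ± 0.044 in vehicle (SD, n = 5), and fell with dose over 55 to 440 mg/kg, by 0.24 per doubling (adjusted p = 0.00621, limma). Kyat1, which turns kynurenine into kynurenic acid, rose by 0.82 ± 0.15 (SE), or 0.66 without the array that stood apart. Afmid, which makes kynurenine, rose by 0.65 ± 0.14 (SE), or 0.47 without that array. Tdo2, the first enzyme in liver, had a change of 0.039 (adjusted p = 0.803, limma).

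**Figure D3:**
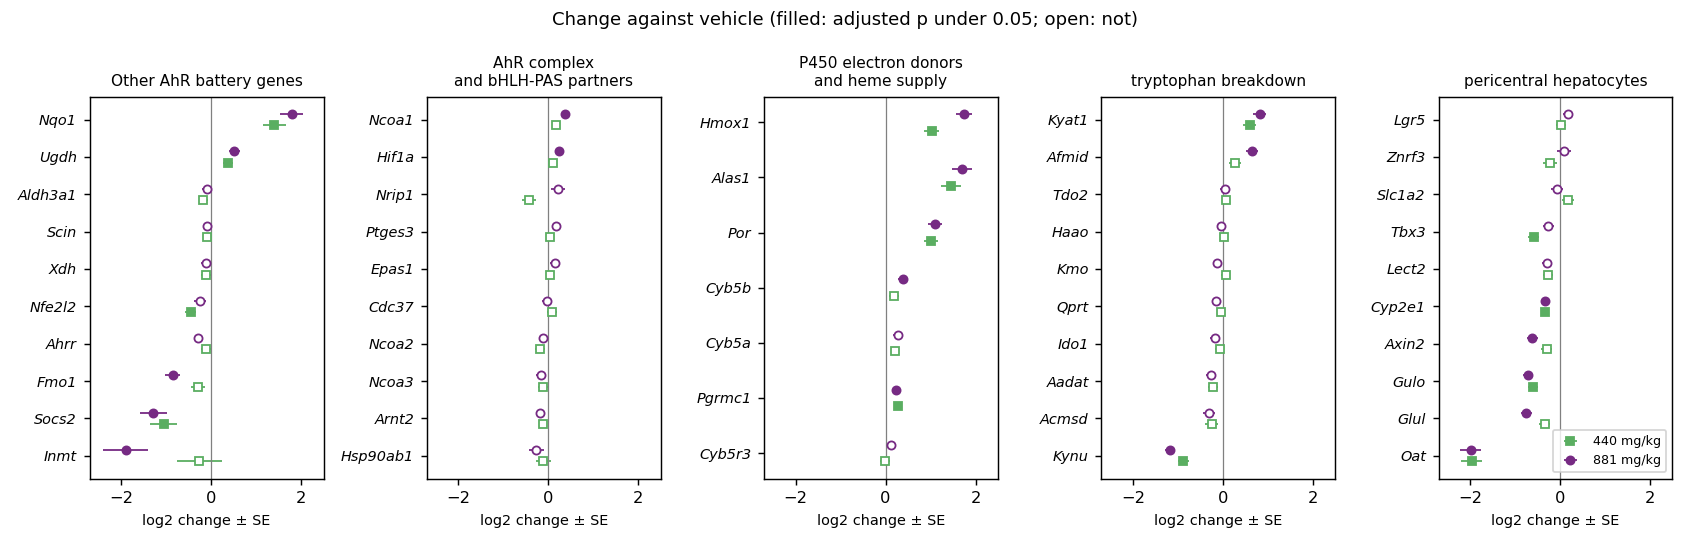
Log2 change against vehicle ± SE (x axis) at 440 mg/kg (squares) and 881 mg/kg (circles) for the genes of 5 lists; filled symbols passed an adjusted p under 0.05. Nqo1, Hmox1, Alas1 and Por rise by 1.10 to 1.79 at 881 mg/kg, while the Oat change is -1.99 and that of Inmt -1.90.

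Some markers of pericentral hepatocytes, the cells in which Cyp1a2 is mainly made, fell at the doses where Cyp1a2 was lower. Of 10 measured (Rnf43 and Rhbg were not analysed here), 1 fell at 220 mg/kg (1.18% of all genes fell there), 4 at 440 mg/kg (4.28%) and 5 at 881 mg/kg (6.73%), and none rose at these doses. Without the array that stood apart 6 fell at 881 mg/kg. At 55 and at 110 mg/kg 1 rose, Slc1a2, a glutamate transporter. Their median change at 881 mg/kg was -0.32, or -0.38 without that array, against 0.0007 over all genes. Oat, an ornithine-breaking enzyme, fell to 8.90 ± 0.19 at 881 mg/kg (SD, n = 3), against 10.89 ± 0.34 in vehicle (SD, n = 5). Glul, glutamine synthetase, fell by 0.75 ± 0.13 (SE), and Cyp2e1, the ethanol-oxidising P450, by 0.34 ± 0.079 (SE). Lgr5 and Slc1a2 were among the 5 not called at 881 mg/kg. Without the array that stood apart, those not called were Lgr5 (0.18), Slc1a2 (-0.18), Tbx3 (-0.31) and Znrf3 (-0.062), so Lgr5 went the other way. The mean level of the list was 9.08 to 9.11 in the 881 mg/kg arrays and 9.49 to 9.61 in the vehicle arrays, and its part in the Cyp1a2 result was not tested. In a bulk sample fewer cells of a type and less RNA per cell cannot be told apart. Falls at 881 mg/kg were also seen among periportal markers, given next.

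Markers of the other cell types of the liver were counted in the same way at 881 mg/kg. There 12.7% of all genes rose and 6.73% fell. With 5 to 10 genes a list, a count of 1 or 2 is too small to set firmly against these shares. General hepatocyte markers averaged 14.59 to 14.71 in the 881 mg/kg arrays and 14.68 to 14.72 in the vehicle arrays. Among 9 measured 1 rose and 1 fell, and without the array that stood apart 1 rose and none fell. These levels are near the top of the scale, where changes may be compressed. Alb, at 15.34 in vehicle, lay within the range of the array maxima (15.30 to 15.36). Of 9 periportal markers 2 rose, Arg1 by 0.24 and Hsd17b13 by 0.26, and 3 fell, among them Sds by 1.17 and Hal by 0.67. Without the array that stood apart 1 rose, Arg1, and 1 fell, Hal. Of 8 Kupffer cell and macrophage markers 7 fell at 881 mg/kg, or 4 without that array, and the list mean was 8.82 to 9.50, against 9.64 to 10.13 in vehicle. Of 10 stellate cell and fibroblast markers 6 fell, or 2 without that array, and of 8 endothelial markers 3 fell, or 1 without it. Of 8 lymphocyte markers 2 fell, or 1 without it, and of 5 bile duct markers 1 rose. The part of these cells in the values of the AhR pathway genes was not tested.

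The genes most like Cyp1a1 and Cyp1a2 were named by the highest Pearson correlation over the 20 arrays, which share the same dose groups and so move together through dose. The 5 closest to Cyp1a1 were Sbspon (r = 0.959), Mmgt1 (0.958), Cpped1 (0.945), Adss1 (0.939) and Gsta4 (0.938). Gsta4, a glutathione transferase for lipid aldehydes, averaged 12.91 at 881 mg/kg and 11.43 in vehicle. Leaving out the array that stood apart, which had the most Cyp1a1, gave correlations of 0.888 to 0.931 for these genes over 19 arrays. Over the 20 arrays with each group's mean removed they were 0.70 to 0.83. These values include that array, whose Cyp1a1 was 9.43 against a group mean of 8.30. They were not computed without it, so how far they rest on it is not known.

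The 5 closest to Cyp1a2 were Oat (r = 0.931), Pdgfra (0.910), Agtr1a (0.903), Slc27a5 (0.888) and Slc17a4 (0.887). Slc27a5, a bile acid CoA ligase of hepatocytes, averaged 12.79 at 881 mg/kg and 13.36 in vehicle, and Agtr1a, an angiotensin receptor, 10.72 and 11.56. Leaving out the array that stood apart gave correlations of 0.878 to 0.925. Over the 20 arrays, that array included, with each group's mean removed they were 0.41 (Oat), 0.44 (Pdgfra), 0.62 (Agtr1a), 0.50 (Slc27a5) and -0.11 (Slc17a4). The 2 closest to each other gene were Snapc2 and Efs for Cyp1b1, Zfp788 and Zbtb1 for Tiparp, and Nol4 and LOC102549836 for Arnt. For the first Ahr probe set they were Zfp365 and Cyp39a1.

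**Figure D4:**
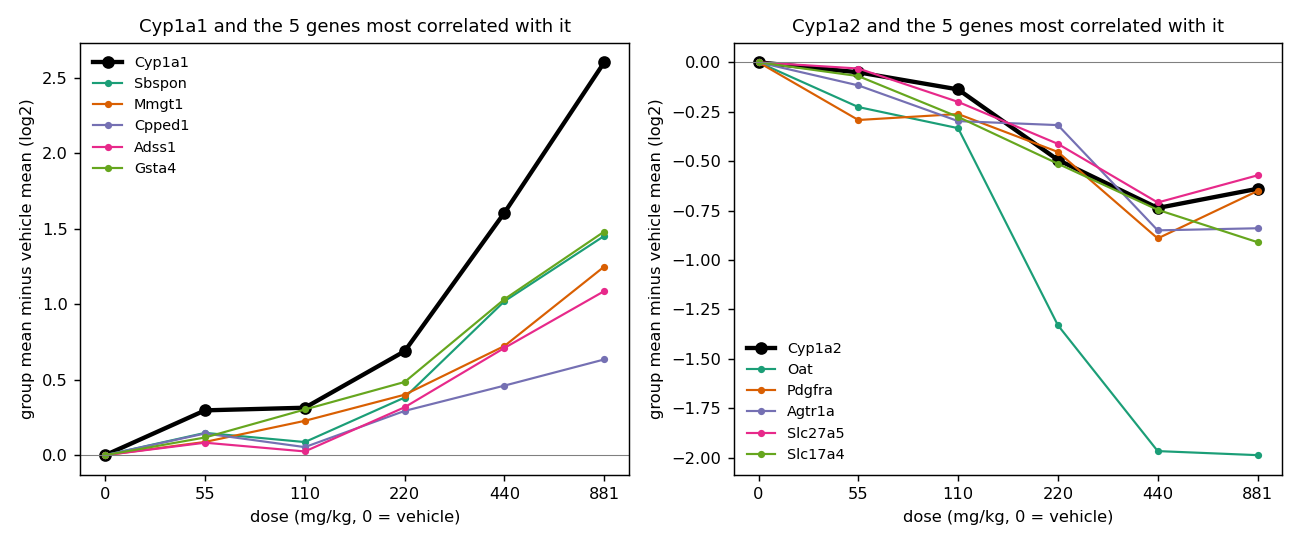
Group mean minus vehicle mean in log2 (y axis) against dose in mg/kg (x axis, 0 is vehicle) for Cyp1a1 and Cyp1a2 (thick lines) and the 5 genes most correlated with each. Cyp1a1 ends at 2.60 with Gsta4 at 1.48, and Cyp1a2 ends at -0.64 with Oat at -1.99.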

How the data were processed

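The authors deposited log2 values, 1 per probe set and array, made with RMA per the submitters' processing notes (version and settings not given in the sources used here). Of 31099 probe sets, 57 controls were set aside. GEO's platform annotation gave 1 symbol to 20826 probe sets, several to 436 and none to 9780, and 20758 of the first kind matched a RefSeq gene ID (GRCr8, for names). The probe set with the highest mean stood for each of 14217 genes.

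Changes against vehicle came from 1 limma 3.58.1 model of 6 dose groups over 20 arrays in R 4.3.3. The slope and the 440 mg/kg contrast used the 12 arrays at 55 to 440 mg/kg. P-values were two-sided and adjusted by Benjamini-Hochberg over all genes, and the scripts were checked on simulated data. The slope difference was tested by exact permutation in Python 3.11.15.

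The members and lists were chosen with earlier results of these data known. The rule named from each list up to 4 called genes with the largest change at 881 mg/kg, up to 2 at each other dose, and Nqo1, Aldh3a1, Ahrr, Ugt1a6, Gsta2, Por, Glul and Cyp2e1 in any case; 1 further gene of that rule is not reported here. Beyond that rule, Ugdh and Slc1a2 at 881 mg/kg, Nfe2l2, Tdo2, Lgr5, Tbx3 and Znrf3 were chosen after their values were seen. So were the genes behind the 440 mg/kg counts that the rule did not name. The alternatives changed the probe set rule, signal filter, centring, array weights, replicate block, RNA quality term and arrays. The number of arrays limits the precision.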

Additional observations from a re-analysis of the deposited data

How the results depend on the processing

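Cyp1a2 kept its fall with dose over 55 to 440 mg/kg in every alternative run, with adjusted p-values of 0.00121 to 0.0168 (limma). The slope difference between Cyp1a1 and Cyp1a2 kept its sign and stayed past the threshold, with permutation p-values of 6.49e-05 to 0.00101. Cyp1a1 alone sat at the threshold: its slope passed with array weights (0.4577, adjusted p = 0.0329, limma) and with the replicate block (0.4301, adjusted p = 0.0338, limma), and leaving out 1 array gave 0.3097 to 0.5321. Its difference at 440 mg/kg passed with array medians centred (1.1844), an intensity trend (1.1725), array weights (1.2456) and the replicate block (1.1725, adjusted p = 0.0255, limma), and leaving out 1 array gave 0.8283 to 1.6805. That of Cyp1a2 ran between -0.5475 and -0.4671 with 1 array left out. Small differences of genes not called turned sign: Cyp1b1 at 440 mg/kg had -0.0659 with array weights and -0.0783 to 0.1126 with 1 array left out, Ahr had -0.0043 with its probe sets averaged, and the Arnt slope ran between -0.0214 and 0.0402. The cause was not tested.

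Nothing in the labels pairs arrays by replicate number. Deviations of same-numbered arrays correlated between -0.116 and 0.348 (median 0.136), against -0.283 to 0.224 (median -0.050) for different numbers, so not every pair was positive. The higher median is a hint from the data, not the design. Under the block, 2 genes linked with the receptor were called at 440 mg/kg in place of 4, and leaving out 1 array gave 1 to 4. Over all genes the block called 322 in place of 488 at 220 mg/kg, 421 in place of 226 for the slope and 304 in place of 118 at 440 mg/kg against the lower doses. Array weights called 842 in place of 400 at 55 mg/kg, 800 in place of 513 at 110, 1293 in place of 488 at 220, 2511 in place of 1570 at 440, and 207 in place of 118 against the lower doses. A beta-actin term called 678 at 55 and 780 at 110 mg/kg. Centring moved the split at 881 mg/kg from 1810 higher and 957 lower to 2268 and 684 by array medians, and to 1490 and 1345 by the median of the genes tested, which was added after seeing the data. At 55 mg/kg the added centring gave 204 higher and 153 lower in place of 275 and 125, and at 110 mg/kg 286 and 231 in place of 336 and 177. At 881 mg/kg the changes of Cyp1a1 and Cyp1a2 kept their sign under both.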
